A study of Homo sapiens with 2 samples.

Results

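Accessible chromatin at the ends of the human chromosomes was described in 2 osteosarcoma cell lines, Saos-2 and U2OS. The regions are the DNase I hotspots in the terminal 1 Mb of each arm of chromosomes 1 to 22, counted from the first or the last base of the hg38 chromosome. The short arms of chromosomes 13, 14, 15, 21 and 22, which carry ribosomal DNA, were left out, so 39 chromosome ends and 39 Mb remained. They held 806 of the 51556 hotspots listed for Saos-2 (1.56%) and 929 of the 63388 listed for U2OS (1.47%), or 1735 of 114944 over both lists. The choice rests on position alone and not on any measured value. Short arms are written p and long arms q, so 7p is the end of the short arm of chromosome 7.

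In DNase-seq, nuclei are digested lightly with the endonuclease DNase I, which cuts DNA that nucleosomes leave exposed, and a hotspot is a region with more cuts than its surroundings. Saos-2 and U2OS are established human lines grown from osteosarcomas, and the labels name no treatment or genetic change for either. Each line is 1 library, so no difference between them has a replicate error and none was tested. Intervals are 95% Wilson counting intervals, or log2 intervals made from them. Such intervals hold no more than the error of counting, and hotspots that lie side by side do not vary independently.

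Human chromosomes end in long arrays of the repeat TTAGGG. Inside the repeats lies the subtelomere, a mosaic of segments copied between chromosomes that carries families such as the DDX11L and WASH pseudogenes and the OR4F olfactory receptors, followed by gene-rich single-copy DNA. Both lines are known to lack telomerase activity and to maintain their telomeres by alternative lengthening of telomeres, a pathway based on recombination. The hg38 assembly writes the outermost stretch of most arms as unknown bases, and reads from copied segments can align to several ends. How such reads were treated is not given in the sources used here.

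The sequences shown first are promoters at chromosome ends where the lists differed, with one that was accessible in both lines for comparison. They are RefSeq sequences on GRCh38.p14, from 250 bases before to 50 bases after an annotated start, read 5′ to 3′ on the strand of the gene. Capitals mark the single telomere repeat unit TTAGGG or its reverse complement CCCTAA, and CCCTC or its reverse complement GAGGG. The insulator protein CTCF is named after CCCTC, but binding at these matches was not tested. ZNF132 and ZNF595 carried a hotspot in Saos-2 only, ZNF135, CDK10 and LINC03015 in U2OS only, and TBP in both.
ZNF132 promoter, chr19:58440104-58440403, minus strand: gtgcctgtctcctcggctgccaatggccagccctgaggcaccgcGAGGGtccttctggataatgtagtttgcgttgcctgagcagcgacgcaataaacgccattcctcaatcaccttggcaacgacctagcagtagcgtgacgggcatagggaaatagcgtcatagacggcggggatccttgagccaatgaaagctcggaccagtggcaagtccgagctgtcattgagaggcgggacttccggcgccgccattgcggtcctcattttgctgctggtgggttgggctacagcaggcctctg
ZNF595 promoter, chr4:53071-53370, plus strand: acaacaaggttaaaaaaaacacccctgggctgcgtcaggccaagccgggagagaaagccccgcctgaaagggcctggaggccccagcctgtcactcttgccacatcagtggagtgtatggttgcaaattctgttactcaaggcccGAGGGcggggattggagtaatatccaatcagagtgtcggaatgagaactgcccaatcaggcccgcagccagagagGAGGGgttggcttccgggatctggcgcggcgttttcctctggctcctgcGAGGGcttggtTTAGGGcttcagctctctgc
ZNF135 promoter, chr19:58058989-58059288, plus strand: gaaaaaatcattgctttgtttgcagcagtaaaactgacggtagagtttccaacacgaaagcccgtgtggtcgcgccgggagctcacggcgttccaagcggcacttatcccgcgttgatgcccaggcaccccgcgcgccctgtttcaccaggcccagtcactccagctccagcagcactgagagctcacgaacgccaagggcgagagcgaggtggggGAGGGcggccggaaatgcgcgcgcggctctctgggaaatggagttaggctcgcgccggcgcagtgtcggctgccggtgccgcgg
CDK10 promoter, chr16:89686439-89686738, plus strand: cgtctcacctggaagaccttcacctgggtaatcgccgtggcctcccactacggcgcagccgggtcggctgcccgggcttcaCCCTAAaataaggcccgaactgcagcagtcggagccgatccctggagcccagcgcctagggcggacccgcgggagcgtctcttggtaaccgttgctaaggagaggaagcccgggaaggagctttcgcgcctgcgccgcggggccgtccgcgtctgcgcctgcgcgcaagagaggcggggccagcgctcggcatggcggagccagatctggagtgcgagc
LINC03015 promoter, chr7:149389-149688, minus strand: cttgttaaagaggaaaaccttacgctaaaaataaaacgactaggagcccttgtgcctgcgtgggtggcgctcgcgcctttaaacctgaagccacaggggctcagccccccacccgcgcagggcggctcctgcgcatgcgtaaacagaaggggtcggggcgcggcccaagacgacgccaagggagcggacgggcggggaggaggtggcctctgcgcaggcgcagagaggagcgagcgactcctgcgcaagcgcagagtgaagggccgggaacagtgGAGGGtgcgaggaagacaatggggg
TBP promoter, chr6:170554119-170554418, plus strand: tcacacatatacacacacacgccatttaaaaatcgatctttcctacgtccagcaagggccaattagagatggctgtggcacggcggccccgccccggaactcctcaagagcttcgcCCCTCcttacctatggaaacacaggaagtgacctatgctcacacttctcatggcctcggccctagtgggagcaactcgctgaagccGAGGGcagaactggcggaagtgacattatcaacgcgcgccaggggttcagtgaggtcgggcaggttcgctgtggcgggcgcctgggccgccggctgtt

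ZNF132 and ZNF135 are zinc finger genes of the 19q cluster, ZNF595 is the zinc finger gene nearest to the end of 4p, CDK10 encodes a cyclin-dependent kinase, and TBP encodes the TATA-binding protein. LINC03015 is a non-coding RNA gene of 7p whose start faces that of LINC03014. In Saos-2 the ZNF132 promoter hotspot reached a significance of 24.9 and the one at ZNF595 3.43. Significance here is the authors' −log10 value for a hotspot, which has an upper limit of 100. In U2OS the hotspots had a significance of 19.4 at ZNF135, 13.5 at CDK10 and 28.2 at LINC03015. The TBP promoter had 22.4 in Saos-2 and 47.6 in U2OS. Levels of significance depend on the depth of a library, which is unknown from these lists, so they rank hotspots within a list only. Of the sequences shown, only ZNF595 and CDK10 hold a TTAGGG unit, and CDK10 is the only one without CCCTC.

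The RefSeq table held 1038 promoters in the end windows, of 836 genes. A hotspot of both lines overlapped 270 of them (26.0%), one of Saos-2 alone 35 (3.37%) and one of U2OS alone 64 (6.17%). The shares over the other promoters of chromosomes 1 to 22 were 27.5%, 3.62% and 7.06%. The median number of CpG dinucleotides in the 300 bases was 34 for end promoters open in both lines, 30 for Saos-2 only, 34 for U2OS only and 13 for those open in neither. Elsewhere the same medians were 26, 24, 24 and 5, so end promoters held more CpG in every class. The 6 letters TTAGGG, searched on both strands, were present in 67 of the 1038 end promoters (6.45%) and in 3074 of all 33725 promoters (9.11%). A tandem pair of TTAGGG units was in none of the end promoters and in 2 of all. CCCTC was in 76.3% of end promoters and in 71.1% of all.

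In Saos-2 an end held between 1 hotspot, at 8p and 14q, and 48, at 19q, with a median of 17. In U2OS the range ran from 4 at 8p to 50 at 19q, with a median of 24. The lines ranked the ends alike: the Spearman correlation of their counts across the 39 ends was 0.70, a description of ends that share 2 libraries. Counts also followed the number of protein-coding genes at an end, with Spearman correlations of 0.51 in Saos-2 and 0.63 in U2OS. Summed over both lines, the richest ends after 19q, which holds the zinc finger cluster, were 17q with 47 and 44 hotspots in Saos-2 and U2OS and 8q with 44 and 49. The poorest were 8p with 1 and 4 and 14q with 1 and 6, where the immunoglobulin heavy chain locus lies. End 3p had 4 and 7 hotspots, none of which overlapped between the lines.

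**Figure D1:**
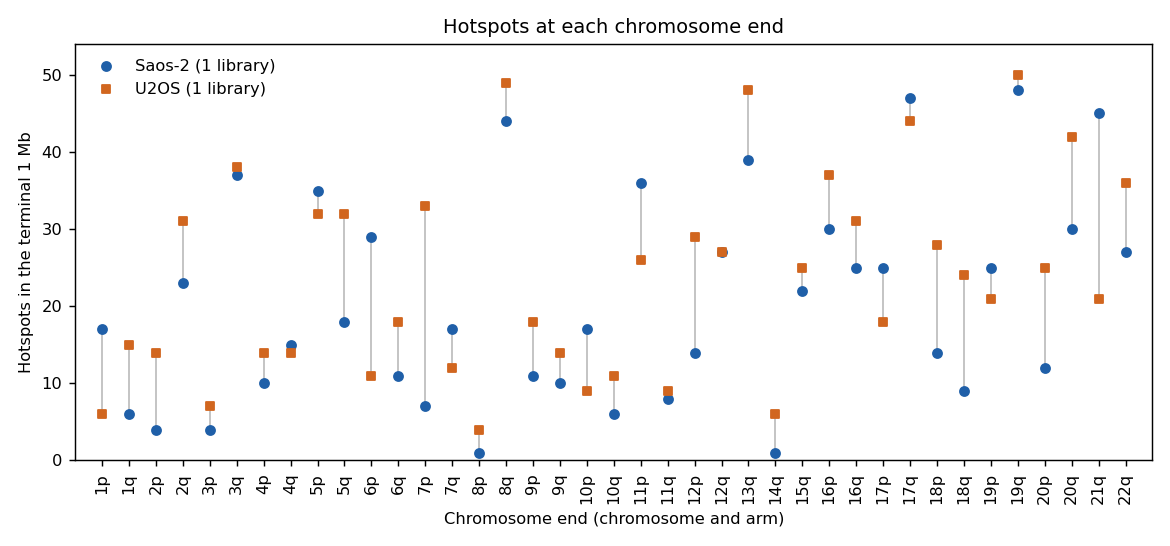
Number of hotspots in the terminal 1 Mb of each of the 39 chromosome ends, in Saos-2 (blue circles) and U2OS (orange squares), 1 library each, with a grey line joining the values of an end. End 7p stands out with 7 against 33 hotspots, 21q with 45 against 21 and 6p with 29 against 11, while 12q has 27 in both.

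U2OS had more hotspots at 27 ends, Saos-2 at 11, and 12q was equal with 27 in each. The U2OS list is longer, with 1.24 times as many hotspots on chromosomes 1 to 22, a log2 ratio of 0.30. Ratios were therefore centred by subtracting that value. Over all ends together U2OS had 1.15 times as many hotspots, a centred log2 ratio of −0.10 with an interval from −0.24 to 0.04. After centring 20 ends were above 0 and 19 below, and the interval over all ends includes 0. Among the 50% of each list with the highest significance the ratio over all ends was −0.30, which lies below that interval.

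Per base of assembly length, the terminal 1 Mb was slightly denser in hotspots than the rest. Saos-2 had 20.7 hotspots per Mb in the end windows and 17.4 in the rest of chromosomes 1 to 22, a ratio of 1.19 (interval 1.11 to 1.27). U2OS had 23.8 and 21.5 per Mb, a ratio of 1.11 (1.04 to 1.18). Lengths include unknown bases, and the rest includes the short arms left out of the end windows. Unknown bases in the rest raise these ratios and those at the tips lower them. They were not counted, so whether either ratio exceeds 1 per known base was not tested. With windows of 0.5 Mb the ratios were 1.02 and 0.928. Protein-coding genes were 2.67 times as dense there, at 17.2 against 6.45 per Mb. Relative to genes, hotspots were thus sparse at the ends: Saos-2 had 1.20 per gene in the windows and 2.69 in the rest, and U2OS had 1.38 and 3.33. The next 9 Mb of the same arms, from 1 to 10 Mb, had 20.2 hotspots per Mb in Saos-2 and 26.0 in U2OS.

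Overlap between the lines was counted from 1 shared base. In Saos-2, 479 of the 806 end hotspots (59.4%, interval 56.0 to 62.8) were overlapped by a U2OS hotspot, against 58.3% in the rest of chromosomes 1 to 22. In U2OS, 481 of 929 (51.8%, 48.6 to 55.0) were overlapped, against 46.8% (46.4 to 47.2) in the rest. The remaining 327 Saos-2 and 448 U2OS end hotspots had no overlap. Over all hotspots of chromosomes 1 to 22 the shares without overlap were 41.7% in Saos-2 and 53.2% in U2OS. Shared hotspots at the ends had higher significance, with medians of 5.41 against 3.40 in Saos-2 and 6.52 against 3.03 in U2OS. They were also wider, with medians of 291 against 207 bp in Saos-2 and 308 against 194.5 bp in U2OS. With lists cut to equal length, by significance, the overlapped shares were 54.2% in Saos-2 and 58.7% in U2OS, the opposite order. Across the 497 overlapping pairs the Spearman correlation of significance between the lines was 0.42.

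Pairs were ranked by the lower of their significances, and the first 5 were near genes of several kinds. At 1p, 2 pairs lay in mitochondrial pseudogenes, copies of mitochondrial DNA inserted into the nuclear genome, with significances of 100 against 64.0 and 100 against 45.1 in Saos-2 and U2OS. At 19q, the pair at the start of the zinc finger gene ZNF837 (chr19:58380846-58381462 in Saos-2) had 40.8 and 27.5. At 17q, a pair 14.6 kb from METRNL, which encodes a secreted protein, had 27.0 and 32.6. At 13q, the pair in the non-coding RNA gene LINC00452 had 31.5 and 26.9.

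Hotspots were sparser in the last 100 kb than farther in, in both lines. From 500 to 1000 kb of the end Saos-2 had 23.6 and U2OS 27.6 hotspots per Mb. From 100 to 500 kb the densities were 19.0 and 21.99, and in the last 100 kb they were 12.8 and 12.1, with 50 and 47 hotspots. The lowest density in either line was at 20 to 50 kb, with 8.55 per Mb in Saos-2 and 11.1 in U2OS. The last 20 kb had 17.9 per Mb in Saos-2 and 11.5 in U2OS, not lower than the stretch before. Lengths include the unknown bases at the tips, so the densities of the last 20 kb, and to a lesser degree of the last 100 kb, are understated per known base.

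**Figure D2:**
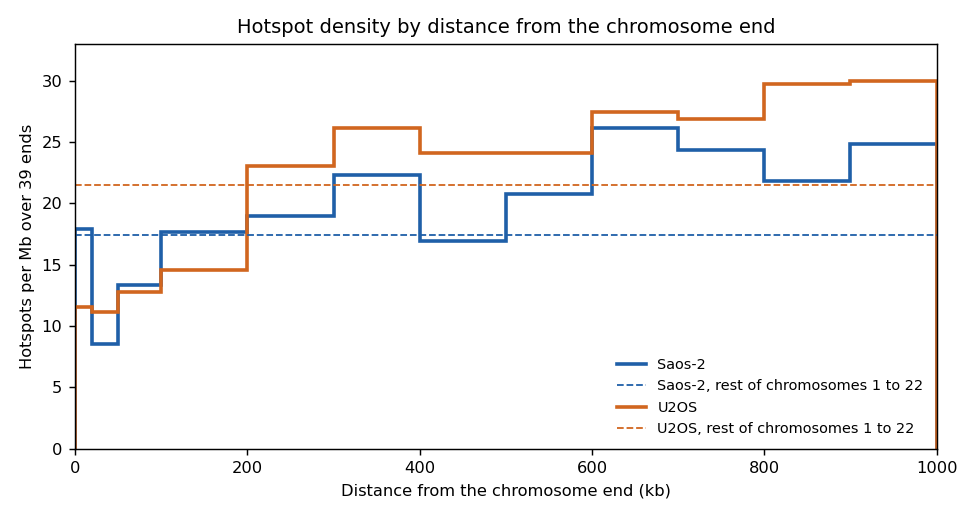
Hotspots per Mb summed over the 39 ends (vertical axis) by distance from the chromosome end in kb (horizontal axis), for Saos-2 (blue) and U2OS (orange), with dashed lines at the density in the rest of chromosomes 1 to 22. Both lines fall from 1000 to 20 kb, if not at each step, and in the last 20 kb Saos-2 is at 17.9 and U2OS at 11.5 hotspots per Mb.

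The last 20 kb held 14 Saos-2 hotspots and 9 U2OS hotspots, a centred log2 ratio of −0.94 with an interval from −2.12 to 0.23 that includes 0. In Saos-2, 2 of the 14 overlapped a hotspot of the other line (14.3%, interval 4.01 to 39.9), against 58.3% outside the end windows. In U2OS, 2 of the 9 did (22.2%, 6.32 to 54.7), against 46.8%, which that wide interval includes. The Saos-2 hotspots lay almost all at one distance. Within 11 kb of the end, a limit chosen after the positions had been seen, Saos-2 had 12 hotspots at 11 ends and U2OS had 3 at 3 ends, a centred log2 ratio of −2.30 (−4.03 to −0.58). No hotspot of either line lay closer to a chromosome end than 9.93 kb. No reads can align to the unknown bases at most tips, so this distance cannot be told apart from the edge of the known sequence.

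Some of the Saos-2 terminal hotspots reached high significance. The one at 3p (chr3:10205-10734) and the one at 15q (chr15:101980792-101981096) were at the limit of 100, and only 6 Saos-2 end hotspots reached it. The hotspot at 12p (chr12:10010-10451) had 36.1, that at 4p (chr4:10032-10291) 25.5 and that at 22q (chr22:50807942-50808416) 25.2. Further ones had 8.26 at 2q, 7.24 at 1p, 5.35 at 11q, 2.33 at 18p and 2.22 at 7p, and 7q had a pair with 1.95 and 1.76. None of these 12 overlapped an annotated gene. Reads from repeats or copied segments can align to several ends, and the sequence under these hotspots was not read. Which end they belong to is therefore uncertain. The nearest protein-coding genes were olfactory receptor OR4F15 at 15q, 161 kb away, the cell adhesion gene CHL1 at 3p, 186 kb away, and IQSEC3 at 12p, 56.3 kb away.

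The U2OS hotspots within 11 kb were all weak, with 1.52 at 2p, 1.79 at 16p and 2.05 at 4p (chr4:10246-10419), which overlapped the Saos-2 hotspot there. At up to 20 kb U2OS added a hotspot of 2.01 at 2p, one of 1.82 at 4p, a pair of 4.71 and 2.82 at 5p, one of 1.75 at 9p and one of 8.48 at 11q, 16.3 kb from the end. At 9p both lines had a hotspot beside the pseudogene DDX11L5, with 8.29 in Saos-2 and 1.75 in U2OS. In the last 20 kb, 5 Saos-2 hotspots and no U2OS hotspot had a significance of at least 20. The median was 7.75 in Saos-2 and 2.01 in U2OS, whereas over all end hotspots the medians were 4.52 and 4.31.

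Counted by end, 10 ends had a hotspot in the last 20 kb in Saos-2 only, 3 in U2OS only, 3 in both (4p, 9p and 11q) and 23 in neither. Extending to 50 kb gave 18 ends with a hotspot in Saos-2 and 12 in U2OS, of which 9 were shared, and 18 ends with none. The hotspot nearest to the end lay at a median of 82.0 kb in Saos-2 (9.93 to 747 kb) and 144.5 kb in U2OS (10.0 to 407 kb).

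**Figure D3:**
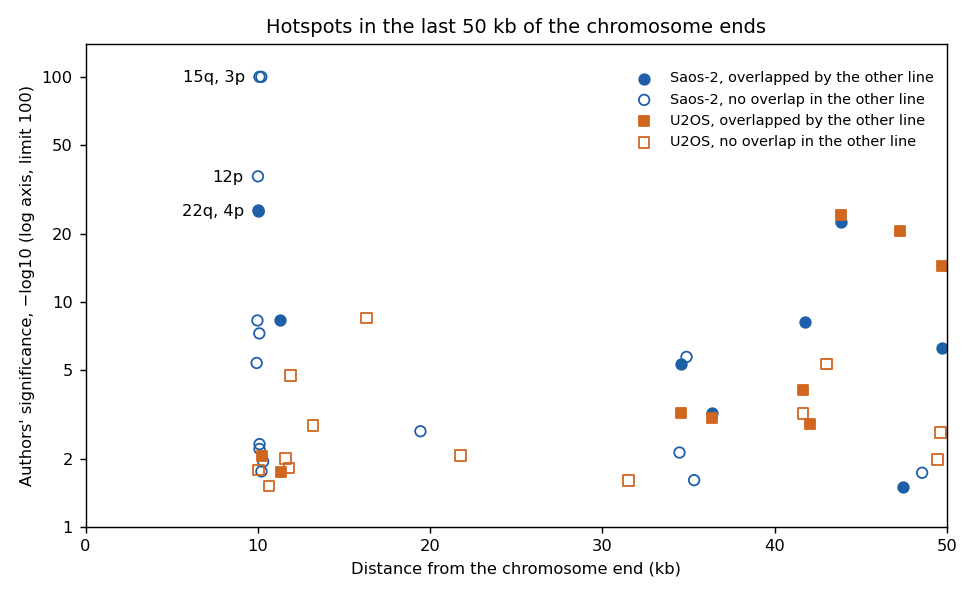
Hotspots in the last 50 kb of the 39 ends by distance from the end in kb (horizontal axis) and the authors' significance, −log10, on a log axis (vertical axis); filled symbols overlap a hotspot of the other line and open symbols do not. A column of mostly open Saos-2 circles stands at about 10 kb and includes the hotspots of 3p, 15q, 12p, 4p and 22q, all at or above 25.2. The unknown bases at most tips can hold no hotspot.

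At 4q the outermost hotspots of both lines lay in DUX4, the germline transcription factor gene of the D4Z4 repeat. Saos-2 had 4 hotspots there with significances from 1.61 to 5.69 and U2OS had 1 with 3.04, all between 34.5 and 36.4 kb from the end. D4Z4 units are near-identical, and a second array lies at 10q, so the assignment to 4q is uncertain. At 19q a pair of 22.7 in Saos-2 and 24.4 in U2OS lay at MZF1, a zinc finger gene 43.9 kb from the end. At 13q a pair of 6.26 and 14.4 lay in CHAMP1, which encodes a protein of chromosome segregation, 49.7 kb from the end.

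Single ends were compared by centred ratio, and an end was called different where one line had at least 2-fold more after centring and both lines together had at least 10 hotspots. Of 37 ends with enough hotspots, 4 were called for U2OS and 4 for Saos-2. Among all 2499 1 Mb windows of chromosomes 1 to 22 with as many hotspots, 14.7% were called for U2OS and 5.40% for Saos-2. The median centred ratio was −0.00 over the ends and 0.06 over all windows. The counting interval excluded 0 at 7 of the 37 ends. With windows of 0.5 Mb 2 ends were called for U2OS and 1 for Saos-2, and with 2 Mb 3 and 1. With lists of equal length there were 2 and 6, and centred on the next 9 Mb 1 and 4.

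The ends called for U2OS were 7p, 2p, 18q and 1q. At 7p Saos-2 had 7 hotspots and U2OS 33, a centred log2 ratio of 1.93 (0.79 to 3.08). The ratio was 1.503 (−0.03 to 3.03) at 2p with 4 against 14, 1.11 (0.03 to 2.19) at 18q with 9 against 24, and 1.02 (−0.30 to 2.34) at 1q with 6 against 15. The intervals of 2p and 1q include 0. The next end in that direction, below the limit, was 20p with 12 against 25 and a ratio of 0.75.

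The ends called for Saos-2 were 1p, 6p, 21q and 10p. The centred ratio was −1.81 (−3.11 to −0.51) at 1p with 17 Saos-2 and 6 U2OS hotspots, and −1.70 (−2.69 to −0.72) at 6p with 29 against 11. It was −1.40 (−2.14 to −0.66) at 21q with 45 against 21 and −1.22 (−2.36 to −0.09) at 10p with 17 against 9. Next in that direction, short of the limit, were 7q with 17 against 12 and −0.81, 17p with 25 against 18 and −0.78 (−1.64 to 0.08), and 11p with 36 against 26 and −0.77. The intervals of all 4 called ends exclude 0, as does that of 11p.

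End 7p held the longest series of hotspots of one line at any end. From 89.4 to 813 kb, sorted by start, 24 U2OS hotspots followed each other without a Saos-2 hotspot between them. Saos-2 had 1 hotspot nearer to the end, at 10.1 kb. Inside the stretch U2OS had 5 hotspots in PRKAR1B, a regulatory subunit gene of protein kinase A, where Saos-2 had none. It had 2 in FAM20C, which encodes a secretory-pathway kinase that phosphorylates matrix proteins of bone, and 2 in PDGFA, which encodes a platelet-derived growth factor chain, again against none. Further in, SUN1, a nuclear envelope gene, had 2 Saos-2 and 4 U2OS hotspots, and ADAP1 had 1 and 4. The strongest U2OS hotspot of the stretch was the one at the LINC03015 start shown above (chr7:148984-149704). The median significance of the 24 was 3.06, so most of them were weak.

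At the other U2OS ends the difference was spread over genes and the DNA between them. At 18q, NFATC1, a calcium-regulated transcription factor gene required for osteoclast formation, had 1 Saos-2 and 5 U2OS hotspots. CTDP1, a phosphatase gene acting on RNA polymerase II, had 3 and 1, against the direction of the end. Outside protein-coding genes 18q had 2 and 11, and 2p had 1 and 10. At 1q, the transposase-derived gene PGBD2 had 3 and 6 and SH3BP5L 0 and 2.

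At 6p, Saos-2 had 3 hotspots inside the phosphatase gene DUSP22 and 1 inside IRF4, a transcription factor gene of lymphoid cells, and U2OS had none in either. U2OS had instead a hotspot just before the DUSP22 start, with a significance of 4.90. EXOC2, of the exocyst complex, had 5 and 4, and outside protein-coding genes the counts were 20 and 7. The strongest Saos-2 hotspot of 6p (chr6:971695-972863) lay in the non-coding gene LINC01622 and had a significance of 30.2.

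At 21q, the RNA-binding protein gene PCBP3 had 9 Saos-2 and 4 U2OS hotspots, LSS, which encodes lanosterol synthase of the cholesterol pathway, 4 and 1, and YBEY 4 and 3. From 671 to 829 kb Saos-2 had 16 hotspots in a row, the second longest series at any end, over the stretch that holds part of PCBP3 and all of the collagen VI gene COL6A1. Inside COL6A1 itself neither line had a hotspot. Within 1 kb of its ends, outside the gene, lay 2 Saos-2 hotspots (209 covered bases, highest significance 5.69) and none of U2OS. At 10p, DIP2C had 8 Saos-2 and 4 U2OS hotspots and LARP4B, an RNA-binding protein gene, 7 and 3.

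At 1p, 5 of the 17 Saos-2 hotspots and 2 of the 6 U2OS hotspots lay within 1 kb of the mitochondrial pseudogenes, between 629 and 635 kb. Of the 6 Saos-2 end hotspots at the limit of 100, 4 were there. The 3 Saos-2 hotspots among them without overlap had 100 (chr1:628985-629760), 100 (chr1:631644-633299) and 98.7 (chr1:631061-631635), and lay at most 0.946 kb from a U2OS hotspot. Reads of mitochondrial DNA can align to such copies, and their part in these values was not tested. The centred ratio of 1p was called for Saos-2 with these hotspots left out as well.

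Ratios at the ends were set beside those of the next 9 Mb of the same arm. Of the 37 ends, 23 had the same sign as their neighbour, and the Spearman correlation across them was 0.52. The same was so at 7 of the 8 called ends, and at 2 of these, 18q with 1.05 and 1p with −1.01, the next 9 Mb was also past the 2-fold limit. At 1q the next 9 Mb had 0.95 and at 21q −0.94, near the ratios of the ends. At 7p the next 9 Mb had 0.15 (−0.10 to 0.40), at 6p −0.37 (−0.62 to −0.11) and at 10p 0.22 (−0.13 to 0.56), so there the difference was larger in the terminal 1 Mb. At 8q the opposite held: the end had 44 and 49 hotspots and a ratio of −0.15, and the next 9 Mb 99 and 324 and a ratio of 1.41. End 5p had −0.43 and its next 9 Mb 0.82.

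**Figure D4:**
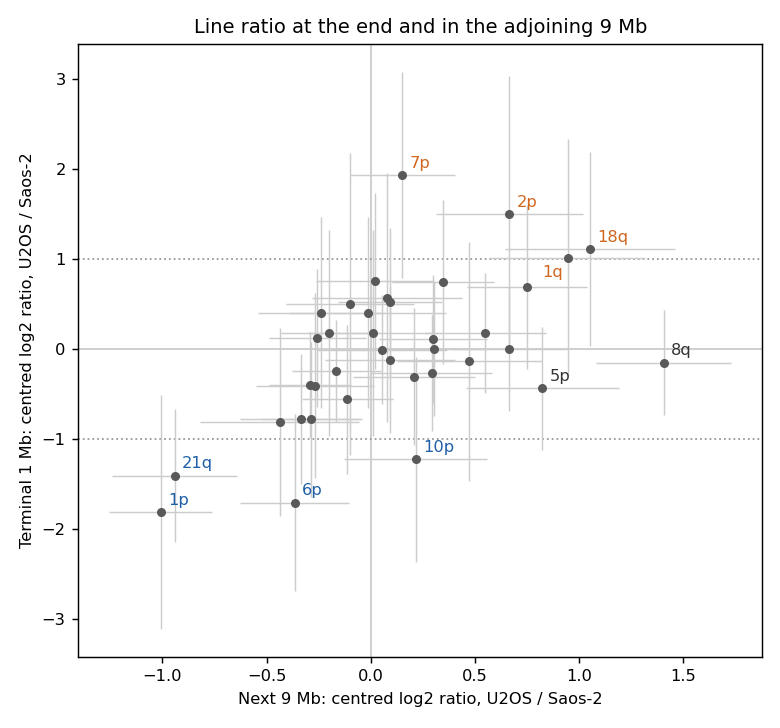
Centred log2 ratio of U2OS to Saos-2 hotspots in the terminal 1 Mb (vertical axis) against that in the next 9 Mb of the same arm (horizontal axis) for the 37 ends with at least 10 hotspots; bars are 95% counting intervals and dotted lines mark 2-fold. Ends 18q, 1q, 1p and 21q lie far from 0 on both axes, 7p and 10p only on the vertical axis, and 8q only on the horizontal axis.

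Without regard to the end, strong U2OS hotspots with no Saos-2 overlap lay at genes and between them. They had significances of 41.1 at 13q in SLC9D1 (chr13:113532086-113532688), 37.2 at 3p in CHL1 (chr3:264589-265124) and 28.2 at 7p at LINC03015. Another, with 27.1, lay between genes at 5q (chr5:181281046-181281900), 19.9 kb from TRIM52. The distance to the nearest Saos-2 hotspot was 18.9 kb for the one at 5q and 139 kb for the one at 7p.

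Of the protein-coding genes, 644 lay wholly in the end windows. A hotspot within 1 kb of a gene end was present in both lines at 239 (37.1%, interval 33.5 to 40.9), in Saos-2 only at 29 (4.50%), in U2OS only at 80 (12.4%, 10.1 to 15.2) and in neither at 296 (46.0%). Over all protein-coding genes of chromosomes 1 to 22 the shares were 43.8%, 5.09% and 10.7% for the first 3 classes. The shares of genes with a hotspot in 1 line only were near this background. End 11p alone held 10 of the 29 Saos-2-only genes, beside 8 U2OS-only genes, out of 45.

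The Saos-2-only genes with the most covered bases were TMEM80 with 642 bp, ANKLE2, a gene of nuclear envelope reassembly, with 448 bp, ZNF132 with 431 bp and the uridine kinase-like gene UCKL1 with 367 bp. They were followed by the growth factor gene FGF22 with 315 bp, PLPPR3 with 282 bp, ZNF595 with 268 bp, and at 11p the transcription factor gene DEAF1 with 229 bp and the neighbours LMNTD2 and RASSF7 with 219 bp of the same hotspot. The highest significance near them was 24.9 at ZNF132 and 10.4 at PLPPR3, and the others were between 3.43 and 6.49.

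The U2OS-only genes began with YES1, a kinase gene of the SRC family at 18p, with 895 bp and a significance of 8.64. CCDC77 and KDM5A, which encodes a histone H3 lysine demethylase, share 1 hotspot of 590 bp with 10.2 at 12p. NFATC1 had 551 bp, CDK10 549 bp, DUSP22 546 bp and ZNF135 520 bp. The neighbours PTK6 and SRMS, both non-receptor tyrosine kinase genes of 20q, shared 466 bp, and WDR24, of a complex that regulates mTORC1, had 422 bp.

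Gene lists of the end windows were counted by the same measure, a hotspot within 1 kb of a gene end. The lists were chosen with earlier results of these data known, so their shares describe the listed genes only. Members that cross the inner edge of a window (such as ZNF134, RSPO4 and CSNK1D) were included. In the list counts that follow, none, both and alone refer to gene ends, and a gene counted as without a hotspot can hold one farther inside. Over all protein-coding genes of chromosomes 1 to 22, 43.8% had a hotspot in both lines, 5.09% one of Saos-2 alone and 10.7% one of U2OS alone. These shares are a background for lists of protein-coding genes only. Most members of the duplicated families, all immunoglobulin segments and many olfactory receptor entries are of other kinds. No background of their own kind was counted for them. Of 118 genes and pseudogenes of the duplicated subtelomere families, spread over 28 ends, 113 had none at a gene end in either line. Of these 113, DUX4 held the hotspots described above. Inside the gene FAM157A held 3 Saos-2 hotspots, RPL23AP82 1 in Saos-2 and 2 in U2OS, and RPL23AP87 and TUBB8B 1 each in Saos-2. The exceptions were DDX11L17 at 1p (25.7 in Saos-2 and 8.74 in U2OS), DUX4L9 at 4q (2.06 and 5.63) and DDX11L5 at 9p in both lines, ZNG1A at 9p in Saos-2 only (4.42) and OR4F6 at 15q in U2OS only (2.94). These copies are near-identical, so which copy a hotspot belongs to is uncertain, and closed chromatin cannot be told apart from reads that were not placed.

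Families used in few tissues were also almost without hotspots at gene ends. Of 65 olfactory receptor genes and pseudogenes at 11 ends, 63 had none, 1 (OR2V2) had one in Saos-2 only and 1 (OR4F6) in U2OS only. Away from the gene ends OR2V2, OR2M4 and OR14I1 held 1 U2OS hotspot each. None of the 6 beta-defensin genes of 20p, which encode antimicrobial peptides, had a hotspot in either line. Of 118 immunoglobulin heavy variable segments at 14q, 115 had none and 3 had a weak U2OS hotspot, of at most 2.52. At 16p none of the 5 alpha-globin genes (HBZ, HBM, HBA2, HBA1 and HBQ1) had one at a gene end, and neither had RHBDF1, which held 1 U2OS hotspot inside the gene, while their neighbours POLR3K, SNRNP25, MPG, NPRL3 and LUC7L had hotspots in both lines. The strongest hotspot at the ends of NPRL3 reached 7.005 in Saos-2 and 11.9 in U2OS. The body of NPRL3 holds enhancers of the globin genes that act in red cells. Within the gene and 1 kb of it lay 3 Saos-2 and 5 U2OS hotspots in all. Whether any of them lies at an enhancer was not tested.

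Zinc finger genes make up the largest family of transcription factors, and many lie in clusters near chromosome ends. Of 53 zinc finger genes at 10 ends, 37 had one at a gene end in both lines. In Saos-2 only these were ZNF132, ZNF418 and ZNF595 (3), in U2OS only ZNF135, ZNF276 and ZNF721 (3), and 10 had no hotspot at a gene end. Of these 10, ZNF814 held 2 Saos-2 and 3 U2OS hotspots inside the gene, ZNF324B 2 and 1, and ZNF511-PRAP1 1 in U2OS. Examples in both lines were ZNF837 with 40.8 in Saos-2 and 27.5 in U2OS, ZNF140 at 12q with 26.8 and 28.9, and ZNF250 at 8q with 15.02 and 37.0. ZNF417 at 19q had 20.4 and 29.6.

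Of 15 broadly used genes, 14 had one at a gene end in both lines, and CSNK1D, a casein kinase gene, in Saos-2 alone (2.46), with 3 Saos-2 and 1 U2OS hotspots in all within the gene and 1 kb of it. PTBP1, a splicing regulator gene, had 8.34 in Saos-2 and 14.8 in U2OS, and ATP5ME, of the mitochondrial ATP synthase, had 8.91 and 8.77. Of 20 genes of genome maintenance and chromatin, 13 had one at a gene end in both lines, ANKLE2 in Saos-2 alone, and SIRT3, ING5, KDM5A and CDK10 in U2OS alone. Away from the gene ends ANKLE2 also held 1 U2OS hotspot, and SIRT3 and KDM5A held 1 Saos-2 hotspot each. EHMT1 and ZMYND11 had none at a gene end, and inside the gene EHMT1 held 1 in Saos-2 and ZMYND11 1 in each line. RTEL1, the helicase gene that regulates telomere length, had 10.5 in Saos-2 and 4.62 in U2OS, and POLE, of DNA polymerase epsilon, had 17.0 and 9.75. TYMS, the thymidylate synthase gene, had 8.04 and 28.4.

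Of the 18 matrix and signalling genes in the windows, 6 were accessible at a gene end in both lines, COL6A1 in Saos-2 alone, YES1 and NFATC1 in U2OS alone, and 9 in neither. Over all 644 genes wholly in the end windows these shares were 37.1%, 4.50%, 12.4% and 46.0%, so the list was near the background. GAS6, a ligand of the AXL receptor, had 10.9 in Saos-2 and 9.69 in U2OS, and AXIN1, a scaffold of the WNT pathway, had 4.31 and 15.1. FAM20C, PDGFA, COL6A2, DLL1, PCSK6, METRNL, RSPO4, SOX18 and PLEKHG4B had none within 1 kb of an end in either line. Farther inside the gene, PLEKHG4B held 8 Saos-2 hotspots and 1 of U2OS, and METRNL 1 of Saos-2. PCSK6 held 3, FAM20C and PDGFA 2 each and RSPO4 1, all of U2OS. COL6A2, DLL1 and SOX18 held none.

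**Figure D5:**
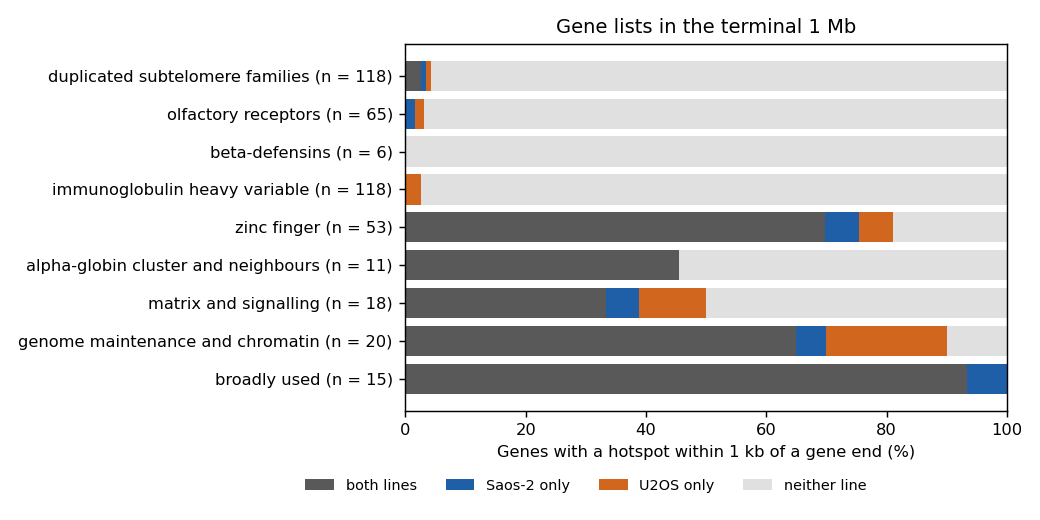
Share of the genes of each list in the terminal 1 Mb (horizontal axis, percent) that had a hotspot within 1 kb of a gene end in both lines (dark grey), Saos-2 only (blue), U2OS only (orange) or neither (light grey). Broadly used genes have 14 of 15 in both lines and the duplicated subtelomere families 113 of 118 in neither. The lists were chosen with earlier results of these data known.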

How the data were processed

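DNase-seq was measured in 1 library each of Saos-2 and U2OS. The authors deposited 1 hotspot list per library, on hg38 without alternate contigs and at a false discovery rate of 0.05, per the file names. Each deposited row has a −log10 significance, limited to 100, and a score that was not used. Trimmomatic 0.38 and BWA 0.7.15 are named, without roles, per the submitters' processing notes. The peak caller and read filters are not given in the sources used here, and depth is unknown.

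Genes came from RefSeq on GRCh38.p14: 676 entries on scaffolds were left out and 18973 protein-coding genes on chromosomes 1 to 22 kept. Overlap means at least 1 shared base. Members, lists and limits were chosen with earlier results of these data known. Named were the 5 ends at each extreme, the 5 strongest hotspots per line without overlap, the 5 strongest pairs, the outermost hotspots within 50 kb, the members of fixed gene lists, and the 10 one-line genes per line with most covered bases; other genes of the called ends, and the sequences shown, were chosen after their values were seen. One hotspot that this rule selects is not reported here. Alternatives were window length, equal lists, the top 50% of each list, merging within 150 bp, a width of at least 200 bp, 50% overlap, covered bases, centring on the next 9 Mb and leaving out hotspot sets. Counting was tested on simulated lists. Python 3.11.15, pandas 2.3.3, numpy 2.4.6, scipy 1.17.1 and matplotlib 3.10.9 were used.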

Additional observations from a re-analysis of the deposited data

Results flagged for a closer look

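The ends of chromosome X and of the short arms of chromosomes 13, 14, 15, 21 and 22 belong to none of the comparisons above. Hotspots appeared there at the end of the long arm of chromosome X, with 4 in Saos-2 and 6 in U2OS in the terminal 1 Mb, above the limit of 3 that a count of 0 allows. The end of the short arm of chromosome X and the 5 short arms left out had 0 in both lines. How much known sequence these windows hold was not checked, so these counts do not show closed chromatin.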

How the results depend on the processing

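Each line has 1 library, so no replicate could be left out. No paired analysis was possible because each line has 1 sample and no replicate numbers. Of 472 values recomputed, 369 were ratios of single ends, of which 10 moved beyond their counting interval and none reversed as a call. With windows of 0.5 Mb there were 346 Saos-2 and 390 U2OS hotspots, the density ratio was 1.02 and 0.928, and 1 end was called for Saos-2 and 2 for U2OS. With 2 Mb there were 1653 and 1996 hotspots, the U2OS density ratio was 1.19, and 1 end was called for Saos-2 and 3 for U2OS. With lists of equal length the overlapped share was 54.2% in Saos-2 and 58.7% in U2OS, which turns their order, the U2OS median significance was 5.55, and the calls were 6 ends of Saos-2 against 2 of U2OS. With the top 50% of each list there were 441 and 443 hotspots, a Saos-2 density ratio of 1.30, a Saos-2 overlapped share of 52.4%, a centred ratio of −0.30 and median significances of 7.69 and 8.62. With hotspots of at least 200 bp there were 598 in U2OS, the Saos-2 density ratio was 1.28, the centred ratio −0.25 and the median significances 6.27 and 6.90. Overlap of at least 50% of both hotspots gave shares of 44.2% and 38.3%. Centred on the next 9 Mb, 4 ends were called for Saos-2 and 1 for U2OS. Apart from the numbers that follow from the window or the filter itself, the cause was not tested. Over the 10 alternatives run for each called end the ratio kept its sign: it was between 0.76 and 3.28 at 7p, 0.11 and 2.50 at 2p, 0.06 and 1.32 at 18q, 0.07 and 1.48 at 1q, −2.69 and −0.80 at 1p, −2.63 and −0.75 at 6p, −2.01 and −0.42 at 21q, and −2.12 and −0.30 at 10p. It stayed past 2-fold in 9 of the 10 at 7p and 6p and in 5 at 2p and 18q. Leaving out the hotspots at the mitochondrial pseudogenes or those in the last 20 kb, both chosen after seeing the data, moved none of these results. Ends that hold no such hotspots, 6p and 18q among them, could not move under these settings. There these settings add nothing to the counts of alternatives past 2-fold. Depth is unknown, so what it limits could not be given.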
